A study of Mus musculus with 80 samples.

Results

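Muscle of mice without UCP1 was compared with muscle of WT mice. The members are the 5 muscle libraries labelled UCP1 KO and the 5 labelled WT, 10 of the 80 RNA-seq libraries of the series, which covers 4 genotypes and 4 tissues. All mice were male and on the C57BL/6J background, bred and raised at 30 °C, and moved at 10 to 12 weeks of age to room temperature and a high-fat diet for 3 weeks, with food withdrawn for 2 to 3 h before tissues were taken. WT mice carry no knockout and UCP1 KO mice lack UCP1 in every cell. The other muscle groups used here are FGF21 KO, which lack FGF21 in every cell, and dKO, which lack both, with 5 libraries each. Homozygous lines of all 4 genotypes were bred from crosses of UCP1 KO with FGF21 KO mice. The comparison of dKO with FGF21 KO is the same loss of UCP1 in mice without FGF21, and it shares no library with UCP1 KO against WT. The labels do not name the muscle that was sampled.

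UCP1 is the proton channel of brown adipocyte mitochondria, which lets respiration run without ATP synthesis and so makes heat. Mice without it are known to rely on other sources of heat below thermoneutrality, such as shivering muscle and calcium cycling by the SERCA pumps of the sarcoplasmic reticulum. The comparison asks what the loss of a brown fat protein does to the transcripts of muscle, a tissue in which myofibres do not normally use it.

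Each library held between 35078371 and 50380696 reads counted on genes in muscle (median 41692806.5), and the depths of WT (37299328 to 43593343) and UCP1 KO (41662618 to 50380696) overlapped. The tissue label was borne out by the level of skeletal muscle markers. The summed level of 10 of them, among them Acta1, Ckm, Myh4 and Ttn, was 121540 to 152530 CPM in WT and 133694 to 141675 CPM in UCP1 KO. CPM is the count of a gene divided by the size of its library, scaled by TMM, so it compares libraries and not genes of unlike length. Myh4, the myosin of the fastest fibres, was the main myosin, at 40400 to 57901 CPM in WT and 46590 to 54698 CPM in UCP1 KO, while Myh7, the myosin of slow fibres, was at 8.49 to 217 CPM in WT and 12.4 to 94.5 CPM in UCP1 KO. In the groups used for comparison some libraries stood apart. The summed level of 8 liver markers was 20.7, 56.5, 59.5, 64.0 and 306 CPM in FGF21 KO and 11.2 to 55.4 CPM in dKO, against 7.40 to 22.4 CPM in WT and 9.33 to 23.6 CPM in UCP1 KO. In dKO library 2 the summed level of blood markers was 247 CPM, against 62.0 to 72.6 CPM in WT and 33.0 to 85.1 CPM in UCP1 KO.

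The targeted gene did not separate the labels in this tissue. Ucp1 (chr8:83290352-83298452, GRCm38, plus strand) had 36, 31, 78, 1176 and 51 counts in the WT libraries and 46, 39, 46, 101 and 465 counts in the UCP1 KO libraries. The groups overlapped, with 1 high library in each, and the log2 fold change of -1.08 ± 1.16 (SE) had an adjusted p of 0.803 in edgeR's quasi-likelihood test. Cidea, a lipid droplet protein of brown fat, was highest in the same libraries, at 19.2 CPM in WT library 4 and 17.97 CPM in UCP1 KO library 5 against at most 2.30 and 2.92 CPM in the others of each group. Other brown adipocyte markers went both ways. Elovl3 was also highest there, at 0.437 and 3.65 CPM, while Cox8b was lowest, at 219 and 210 CPM. The summed level of 10 such markers was highest in WT library 5 and UCP1 KO library 1. Ucp1 and Cidea were also high in FGF21 KO library 5 (21.7 and 6.67 CPM) and dKO library 3 (9.72 and 14.1 CPM). In BAT, where the gene is abundant, Ucp1 was at 5807 ± 1608 CPM (SD, n = 5) in WT and 942 ± 299 CPM in UCP1 KO (log2 fold change -2.62 ± 0.25, SE, edgeR adjusted p = 8.98e-07). In iWAT it was at 7.54 ± 5.74 CPM in WT and 379 ± 241 CPM in UCP1 KO (SD, n = 5), so reads of the gene were still counted in the knockout. Counts per gene do not show which part of a transcript the reads came from. Fgf21, the hormone gene removed in the other knockout, was near the limit of detection in muscle, with 1, 3, 0, 2 and 2 counts in WT and 4, 1, 0, 6 and 10 counts in UCP1 KO, and was too low to be tested.

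Few transcripts passed the test in muscle, and those that did lie beside Ucp1 itself. Of 15114 genes tested, 4 were called in UCP1 KO against WT at an adjusted p under 0.01 (0.0265% of all genes tested). Wdr83os and Wdr83 fell, Ccdc130 and Gm38426 rose, and all 4 are on chromosome 8 between 0.970 and 1.79 Mb from Ucp1. At an adjusted p under 0.05 the number was 11 (0.0728%), of which 5 were higher and 6 lower in UCP1 KO, and 8 were within 10 Mb of Ucp1. DESeq2 called 26 genes at an adjusted p under 0.01 (0.172%), 13 of them within that distance and the 4 genes included.

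The start sites of the genes called are shown first, since they place the genes and show that the windows of a pair of them overlap. Each window runs from 250 bases before to 50 bases after the RefSeq start on GRCm38.p6. It is written 5′ to 3′ on the strand of its gene, with capitals marking matches on either strand to 5 motifs. The ETS-type site is CCGGAAGT and the cAMP response element is TGACGTCA. The GC box was searched as GGGCGG, the CCAAT box by the letters of its name, and the box of TATA-binding protein as TATAAA. Wdr83os lies on the plus strand (window chr8:85080713-85081012) and Wdr83 on the minus strand (window chr8:85080697-85080996). From the RefSeq starts they are transcribed away from each other, and 284 bases of the windows are the same DNA, so only that of Wdr83os is printed. The GENCODE M21 extents of both genes are longer and overlap at this end.
Wdr83os promoter: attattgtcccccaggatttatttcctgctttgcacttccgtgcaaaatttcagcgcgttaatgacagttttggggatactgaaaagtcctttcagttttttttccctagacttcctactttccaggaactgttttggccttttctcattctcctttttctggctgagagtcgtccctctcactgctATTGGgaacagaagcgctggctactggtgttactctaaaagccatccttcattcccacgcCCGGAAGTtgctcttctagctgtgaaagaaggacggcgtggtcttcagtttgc
Ccdc130 lies on the minus strand (window chr8:84270353-84270652), and Gm38426, a non-coding transcript, has its window on the plus strand (chr8:84913085-84913384).
Ccdc130 promoter: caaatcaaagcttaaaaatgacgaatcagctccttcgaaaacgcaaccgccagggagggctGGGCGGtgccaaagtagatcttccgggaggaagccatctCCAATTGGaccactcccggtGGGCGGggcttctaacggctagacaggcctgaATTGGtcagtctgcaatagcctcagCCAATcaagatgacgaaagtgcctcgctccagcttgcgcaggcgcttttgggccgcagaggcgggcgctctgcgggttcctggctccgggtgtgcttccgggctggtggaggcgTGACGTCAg
Gm38426 promoter: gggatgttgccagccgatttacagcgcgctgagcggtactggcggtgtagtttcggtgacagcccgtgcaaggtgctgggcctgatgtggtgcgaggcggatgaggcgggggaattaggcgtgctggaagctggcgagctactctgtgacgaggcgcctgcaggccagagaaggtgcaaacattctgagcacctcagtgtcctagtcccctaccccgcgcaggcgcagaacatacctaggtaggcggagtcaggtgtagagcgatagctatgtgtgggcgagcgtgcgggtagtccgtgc
The window of Wdr83os held the ETS-type site across its start and 1 CCAAT box. That of Ccdc130 held 2 GC boxes, 4 CCAAT matches, a pair of which overlap each other, and 1 cAMP response element. None of the 5 motifs was found in the window of Gm38426, and no TATA box was found in any. Over all 32851 mouse windows of this length, 3.89% held the ETS-type site, 1.79% the cAMP response element, 35.7% the GC box, 37.4% the CCAAT box and 13.6% the TATA box.

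Wdr83os encodes a small membrane protein of the endoplasmic reticulum that helps multi-spanning membrane proteins fold. Its level in WT muscle was 26.7, 26.6, 27.2, 26.8 and 27.9 CPM, and in UCP1 KO muscle 18.8, 20.6, 19.96, 19.6 and 20.3 CPM. All UCP1 KO libraries were below all WT libraries, and the spread within a group was small beside the gap. The level fell by 26.6% (log2 fold change -0.45 ± 0.04, SE, edgeR adjusted p = 3.08e-06). In FGF21 KO it was 27.2, 26.3, 28.4, 27.0 and 27.9 CPM and in dKO 19.8, 19.6, 18.4, 20.5 and 19.3 CPM, so that the libraries split by the loss of UCP1 whether or not FGF21 was present. The log2 fold change of dKO against FGF21 KO was -0.49 ± 0.04 (SE, edgeR adjusted p = 7.01e-07).

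Wdr83 encodes a WD-repeat scaffold protein of ERK signalling. It was at 18.1, 16.0, 17.1, 14.7 and 15.3 CPM in WT and at 11.7, 12.5, 12.6, 12.7 and 12.1 CPM in UCP1 KO. The groups did not overlap, and the level fell by 24.0% (log2 fold change -0.40 ± 0.06, SE, edgeR adjusted p = 0.00256). The call was lost without WT library 3, UCP1 KO library 1 or UCP1 KO library 5 (edgeR adjusted p up to 0.0136) and in the fit of the 2 genotypes alone (edgeR adjusted p = 0.0828). Against FGF21 KO, with 15.6 to 18.4 CPM, dKO was again lower at 11.3 to 11.7 CPM, a log2 fold change of -0.55 ± 0.06 (SE, edgeR adjusted p = 3.64e-05). Wdr83 (chr8:85075035-85081306) overlaps Wdr83os (chr8:85080740-85082339) over 567 bases on the opposite strand, and at its other end Dhps over 128 bases. The libraries are strand-specific, but whether the counting used strand is not given in the sources used here, so the split of reads from the overlaps between the genes is uncertain.

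Ccdc130 encodes a coiled-coil protein related to splicing factors. It was at 5.0, 4.82, 4.55, 5.48 and 4.52 CPM in WT and rose to 7.19, 7.04, 6.31, 6.46 and 6.85 CPM in UCP1 KO. The lowest UCP1 KO library stood above the highest WT library, a rise of 38.7% (log2 fold change 0.47 ± 0.07, SE, edgeR adjusted p = 0.00256). The call was lost when WT library 1, 2 or 3 or UCP1 KO library 1 or 5 was left out (edgeR adjusted p up to 0.0153) and in the fit of the 2 genotypes alone (edgeR adjusted p = 0.0888). In dKO it was at 6.10 to 7.08 CPM against 5.05 to 5.70 CPM in FGF21 KO, again without overlap, with a log2 fold change of 0.30 ± 0.07 (SE) and an edgeR adjusted p of 0.13.

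Gm38426 had the largest fold change of the genes called and the lowest level. It was at 0.838, 0.881, 0.586, 0.606 and 0.553 CPM in WT (22 to 38 counts) and at 3.15, 2.85, 2.31, 1.80 and 1.95 CPM in UCP1 KO (79 to 127 counts). The groups were clear of each other, and the level was 3.47-fold higher (log2 fold change 1.79 ± 0.21, SE, edgeR adjusted p = 0.00025). It was 0.425 to 0.933 CPM in FGF21 KO and 1.69 to 2.75 CPM in dKO, a log2 fold change of 1.61 ± 0.21 (SE, edgeR adjusted p = 0.000876). Its whole length (chr8:84913335-84922915) lies within Dnase2a on the plus strand and Mast1 on the minus strand, so reads of the 3 genes may be mixed. Dnase2a, a lysosomal DNase, was higher by 0.28 ± 0.11 (log2, SE) with an edgeR adjusted p of 0.420.

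**Figure D1:**
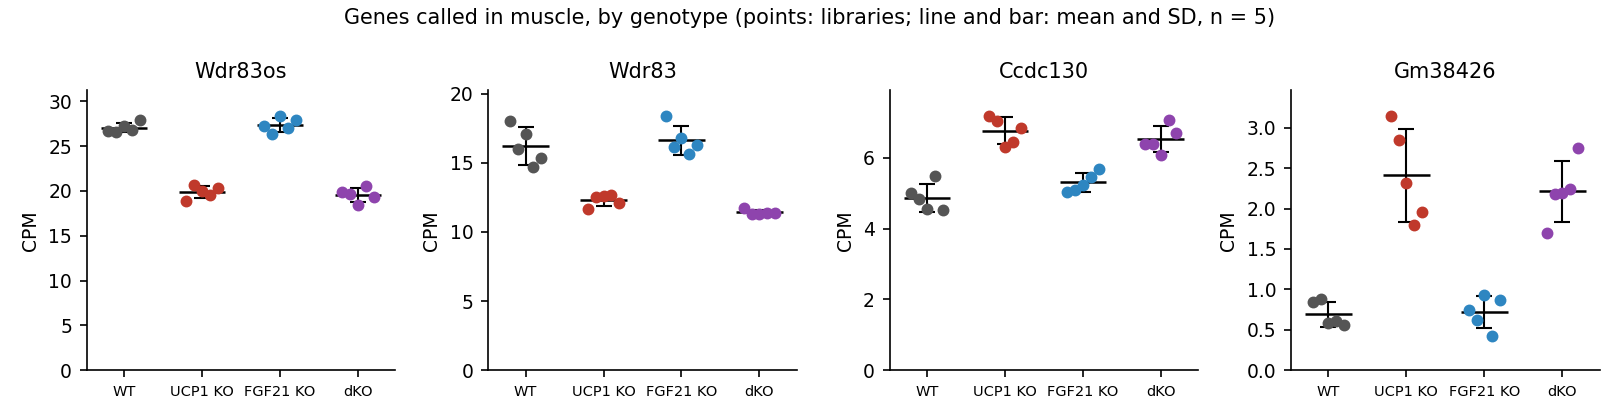
Level of the 4 genes called in muscle, in CPM (vertical axis from 0), for the 5 libraries of each genotype (points) with mean and SD. UCP1 KO and dKO libraries lie together and apart from WT and FGF21 KO libraries in each panel, with Wdr83os at 18.8 to 20.6 CPM in UCP1 KO against 26.6 to 27.9 CPM in WT.

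The neighbourhood of Ucp1 was examined as a whole. Of the 122 tested genes whose midpoint lies within 10 Mb of Ucp1, 41 (33.6%) had an unadjusted p under 0.05 in UCP1 KO against WT, where the share over all genes tested was 9.81%. Of these, 18 were higher and 23 lower. The WT and UCP1 KO libraries did not overlap in 20 of the 122 (16.4%), against 1.95% of all genes tested. The share with an unadjusted p under 0.05 was 26 of 60 within 2 Mb, 11 of 31 from 2 to 5 Mb, 4 of 31 from 5 to 10 Mb and 56 of 635 (8.82%) on the rest of chromosome 8. It was higher on the side after Ucp1, with 35 of 90 genes, than on the side before it, with 6 of 31. Members of the window are neighbours on 1 chromosome and in part overlap, so they are not independent of each other.

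**Figure D2:**
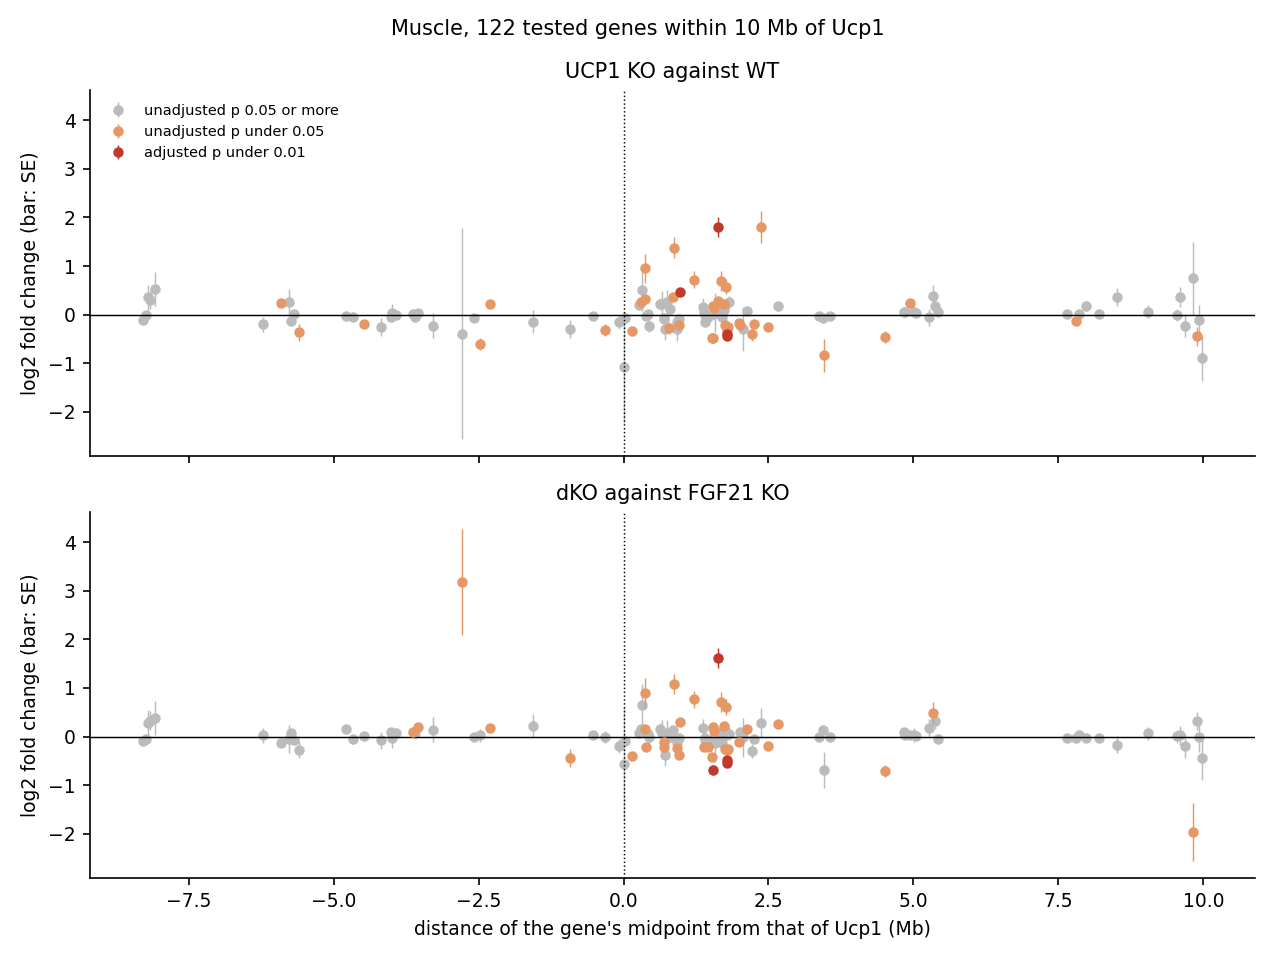
Log2 fold change (vertical axis, bars are SE) of the 122 tested genes within 10 Mb of Ucp1 against the distance of each gene from Ucp1 in Mb (horizontal axis), for UCP1 KO against WT (upper panel) and dKO against FGF21 KO (lower panel). Coloured points have an unadjusted p under 0.05 or an adjusted p under 0.01, and 26 of the 41 such genes in the upper panel lie within 2 Mb of Ucp1.

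Read along the chromosome, higher and lower genes lay next to each other. Scoc, a regulator of autophagy 0.150 Mb from Ucp1, was at 31.8 to 35.8 CPM in WT and 24.0 to 29.0 CPM in UCP1 KO (log2 fold change -0.33 ± 0.08, SE, edgeR adjusted p = 0.178). Gipc1, an adaptor of membrane receptors, was higher by 0.31 ± 0.07 (log2, SE, edgeR adjusted p = 0.121) and the non-coding 4930432K21Rik by 1.37 ± 0.22 (log2, SE, edgeR adjusted p = 0.0117), with 0.291 to 0.692 CPM in WT and 0.867 to 1.66 CPM in UCP1 KO. Mri1, an enzyme of methionine salvage that sits next to Ccdc130, was lower by 0.21 ± 0.06 (log2, SE, edgeR adjusted p = 0.306) while its neighbour rose. Cacna1a, the pore of a neuronal calcium channel, was higher by 0.72 ± 0.18 (log2, SE, edgeR adjusted p = 0.178).

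Around 1.5 Mb from Ucp1, Dand5, an extracellular antagonist of Nodal and BMP ligands, was at 11.8, 9.28, 9.05, 8.78 and 8.52 CPM in WT and 6.52, 6.85, 6.76, 7.26 and 6.50 CPM in UCP1 KO (log2 fold change -0.48 ± 0.09, SE, edgeR adjusted p = 0.0322). Beside it, Gadd45gip1, a protein of the mitochondrial ribosome, was at 10.97 to 16.2 CPM in WT and 8.85 to 10.2 CPM in UCP1 KO, lower by 0.48 ± 0.10 (log2, SE, edgeR adjusted p = 0.0804). Neither gene's groups overlapped. Asna1, the ATPase that delivers tail-anchored proteins to the endoplasmic reticulum, was higher, with 38.3 to 44.8 CPM in WT and 45.8 to 48.8 CPM in UCP1 KO (log2 fold change 0.22 ± 0.04, SE, edgeR adjusted p = 0.045). Junb, an AP-1 transcription factor, was higher by 0.69 ± 0.21 (log2, SE, edgeR adjusted p = 0.306). Dhps, which makes the hypusine residue of a translation factor and touches Wdr83, was at 15.1 to 17.4 CPM in WT and 12.9 to 13.5 CPM in UCP1 KO (log2 fold change -0.31 ± 0.06, SE, edgeR adjusted p = 0.0804).

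Farther out, Dnaja2, a co-chaperone of HSP70, was at 247 to 266 CPM in WT and 215 to 240 CPM in UCP1 KO (log2 fold change -0.20 ± 0.04, SE, edgeR adjusted p = 0.128). Neto2, an auxiliary subunit of kainate receptors, showed the widest spread: 3.48, 2.99, 5.94, 5.53 and 11.6 CPM in WT and 25.1, 8.77, 26.7, 21.8 and 20.3 CPM in UCP1 KO. WT library 5 was above UCP1 KO library 2, and the log2 fold change was 1.80 ± 0.33 (SE, edgeR adjusted p = 0.0402). Papd5, a poly(A) polymerase 4.94 Mb away, was higher by 0.23 ± 0.05 (log2, SE, edgeR adjusted p = 0.0935). On the other side of Ucp1, Gab1, an adaptor of receptor tyrosine kinases, was at 18.5, 20.2, 19.9, 34.3 and 27.2 CPM in WT and 14.5 to 17.1 CPM in UCP1 KO (log2 fold change -0.61 ± 0.13, SE, edgeR adjusted p = 0.0941).

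The same loss of UCP1 on the FGF21 KO background gave a second set of libraries for these genes. Of all genes tested, 9 were called in dKO against FGF21 KO (0.0595%), 1203 had an unadjusted p under 0.05 (7.96%) and 184 did not overlap (1.22%). Within 10 Mb of Ucp1, 38 of 122 had an unadjusted p under 0.05, 20 did not overlap and 4 were called: Wdr83os, Wdr83, Gm38426 and Gadd45gip1, the last with a log2 fold change of -0.69 ± 0.10 (SE, edgeR adjusted p = 0.00226). Without FGF21 KO library 5 and dKO library 2, which stood apart in liver and blood markers, 3 genes were called, Wdr83os, Wdr83 and Gm38426, and 35 genes of the window had an unadjusted p under 0.05. All 8 liver markers had an unadjusted p under 0.05 and were lower in dKO than in FGF21 KO, with a median log2 fold change of -2.04. All 6 blood markers tested were higher in dKO, 4 of them with an unadjusted p under 0.05, with a median of 2.04. The part of both lists in the comparison was not tested. Of the 41 genes of the window with an unadjusted p under 0.05 in UCP1 KO against WT, 35 had the same direction in dKO against FGF21 KO, and 24 also had an unadjusted p under 0.05 there. Of the 1441 such genes among all others, those with no known position included, 825 had the same direction and 94 also passed. Over the 122 genes Pearson's r between the log2 fold changes of both comparisons was 0.42, and over the 14992 other genes -0.04, as a description across genes that share libraries and are not independent.

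**Figure D3:**
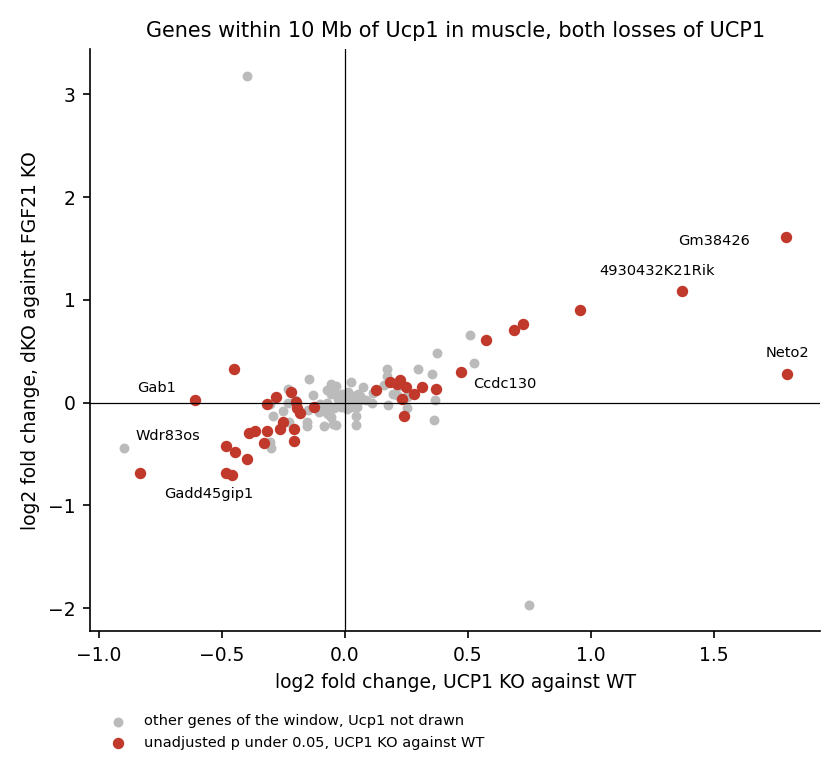
Log2 fold change of dKO against FGF21 KO (vertical axis) against that of UCP1 KO against WT (horizontal axis), 1 point per tested gene within 10 Mb of Ucp1, itself not drawn. Of the 41 coloured genes, 17 are higher and 18 lower in both comparisons, and Neto2 and Gab1 lie near the horizontal line at 0.

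Neto2 and Gab1 had values nearer to 0 in the second comparison. In FGF21 KO Neto2 was at 10.3 to 19.1 CPM and in dKO at 13.98 to 25.3 CPM, with a log2 fold change of 0.28 ± 0.31 (SE, edgeR adjusted p = 0.925), and Gab1 differed by 0.02 ± 0.13 (log2, SE, edgeR adjusted p = 0.99). The difference between the 2 losses of UCP1 was tested as an interaction. It was called for 0 of 15114 genes by edgeR and 0 by DESeq2, with 1131 and 1140 genes at an unadjusted p under 0.05. For Neto2 the unadjusted p of the difference was 0.00306 and for Gab1 0.0026, both with an edgeR adjusted p of 0.516. The UCP1 KO and dKO mice share the knockout allele, and no genotype of the DNA beside it was examined here, so the loss of the protein and any difference in that DNA cannot be told apart in these groups.

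The genes called were looked up in the other tissues, whose libraries may come from the same mice. At an adjusted p under 0.01, UCP1 KO against WT called 106 genes in iWAT (0.61%), 3965 in BAT (25.2%) and 10 in liver (0.0694%). Wdr83os had a log2 fold change of -0.41 ± 0.08 in BAT (SE, edgeR adjusted p = 0.00082), -0.43 ± 0.12 in iWAT (SE, edgeR adjusted p = 0.0709) and -0.38 ± 0.11 in liver (SE, edgeR adjusted p = 0.153), values close to that of muscle. Gm38426 was higher by 2.77 ± 0.21 in BAT (log2, SE, edgeR adjusted p = 4.07e-08) and by 0.81 ± 0.13 in liver (log2, SE, edgeR adjusted p = 0.00975), while iWAT gave 0.25 ± 0.64 (log2, SE, edgeR adjusted p = 0.928). Ccdc130 was higher by 0.49 ± 0.12 in BAT (log2, SE, edgeR adjusted p = 0.00367), with 0.27 ± 0.11 in iWAT and 0.30 ± 0.12 in liver (log2, SE). Wdr83 gave log2 fold changes of -0.15 ± 0.09 in BAT, 0.00 ± 0.08 in iWAT and -0.08 ± 0.09 in liver (SE), none with an unadjusted p under 0.05. A difference between tissues was not tested.

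Of the 14110 tested genes known to lie elsewhere, 0 were called by edgeR in UCP1 KO against WT, 12 were called by DESeq2 and 1390 had an unadjusted p under 0.05. Igf1r and Lvrn reached an adjusted p under 0.05. So did BC049805, 1 of 882 tested genes that have no position in the reference used here, so that it cannot be placed inside or outside the window. Igf1r, the receptor of the growth factor IGF1, was at 17.0, 19.97, 17.1, 19.9 and 20.2 CPM in WT and 15.02, 14.6, 15.3, 13.3 and 15.2 CPM in UCP1 KO. Every UCP1 KO library was below every WT library (log2 fold change -0.36 ± 0.06, SE, edgeR adjusted p = 0.0322). Lvrn, a membrane aminopeptidase, was at 5.18, 5.87, 6.23, 5.21 and 5.05 CPM in WT and 4.21, 4.02, 3.44, 3.40 and 2.85 CPM in UCP1 KO, again without overlap (log2 fold change -0.62 ± 0.12, SE, edgeR adjusted p = 0.045). In dKO against FGF21 KO the log2 fold changes were -0.09 ± 0.06 for Igf1r and -0.22 ± 0.12 for Lvrn (SE). BC049805 was at 7.83 to 9.79 CPM in WT and 5.72 to 7.58 CPM in UCP1 KO (log2 fold change -0.46 ± 0.08, SE, edgeR adjusted p = 0.0322), and it was called in dKO against FGF21 KO at -0.62 ± 0.08 (log2, SE, edgeR adjusted p = 0.00127).

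The genes called by edgeR, all near Ucp1, and uncharacterised names were set aside for a further count. Other genes were counted with a mean of 1 CPM or more over the 20 muscle libraries, unadjusted p under 0.01 and no overlap. Of these, 60 were higher and 82 lower in UCP1 KO, and 12 of the 142 were near Ucp1. The number near Ucp1 would be larger with the genes called included. With the mean taken over 20 libraries, a gene could pass on its level in 1 group. Some genes named here were below 1 CPM in the other group. On the higher side, Nmrk2, the muscle kinase that turns nicotinamide riboside into NAD precursors, was at 173, 145, 138, 207 and 214 CPM in WT and 332, 230, 337, 218 and 227 CPM in UCP1 KO (log2 fold change 0.62 ± 0.19, SE, edgeR adjusted p = 0.306). In dKO against FGF21 KO it was lower by 0.69 on the log2 scale (SE 0.19), and the unadjusted p of the difference was 0.000109, with an edgeR adjusted p of 0.516. The immunoglobulin entries abParts and V00821 were higher by 0.80 ± 0.26 and 0.82 ± 0.25 (log2, SE), and Dmp1, a matrix protein of bone cells, by 1.11 ± 0.30 (log2, SE), with edgeR adjusted p-values of 0.326, 0.306 and 0.253. Zfp286, a zinc finger protein, Adap1, a regulator of the ARF6 GTPase, and Ush1c, a PDZ scaffold, were higher by 0.57 to 0.60 on the log2 scale.

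On the lower side, Muc4, a membrane mucin, was at 1.91, 1.25, 1.76, 1.92 and 2.21 CPM in WT and 0.966, 0.771, 0.732, 0.730 and 0.781 CPM in UCP1 KO (log2 fold change -1.18 ± 0.24, SE, edgeR adjusted p = 0.0822). FGF21 KO, with 0.482 to 1.099 CPM, and dKO, with 0.338 to 1.05 CPM, had ranges that enclosed that of UCP1 KO. Nox4, an NADPH oxidase that makes hydrogen peroxide, was at 4.92 to 5.72 CPM in WT and 2.81 to 4.46 CPM in UCP1 KO (log2 fold change -0.61 ± 0.18, SE, edgeR adjusted p = 0.286). Cdh19, a cadherin of Schwann cells, was at 1.25 to 1.82 CPM in WT and 0.930 to 1.17 CPM in UCP1 KO (log2 fold change -0.60 ± 0.17, SE, edgeR adjusted p = 0.285). Fam180a, AK009335 and Apcdd1, an inhibitor of WNT signalling, had log2 fold changes of -1.0, -0.78 and -0.68. Apcdd1 is 1 of 66 symbols that the files list in 2 rows, kept apart here, and its other row had a log2 fold change of -0.51 ± 0.18 (SE). Adhfe1, a mitochondrial hydroxyacid dehydrogenase that DESeq2 called, had a log2 fold change of -0.46 ± 0.09 (SE, edgeR adjusted p = 0.0804), with WT library 5 at 44.2 CPM just under UCP1 KO library 5 at 44.3 CPM.

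A pair of genes on chromosome 13 was picked out after its values were seen. Kif2a, a microtubule-depolymerising kinesin, was at 12.5 to 14.1 CPM in WT and 15.7 to 17.0 CPM in UCP1 KO (log2 fold change 0.30 ± 0.07, SE, edgeR adjusted p = 0.151) and was called in dKO against FGF21 KO (0.49 ± 0.07, log2, SE, edgeR adjusted p = 0.00304). That call, like that of BC049805, was lost without FGF21 KO library 5 and dKO library 2 and in the fit of these 2 genotypes alone. Nnt, a mitochondrial transhydrogenase in which C57BL/6J mice are known to carry a deletion, varied within groups, with 42.6, 35.1, 23.1, 18.4 and 19.8 CPM in WT and 19.7, 24.4, 66.4, 19.2 and 19.0 CPM in UCP1 KO. It was at 56.2 to 131 CPM in FGF21 KO and 21.4 to 49.0 CPM in dKO.

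**Figure D4:**
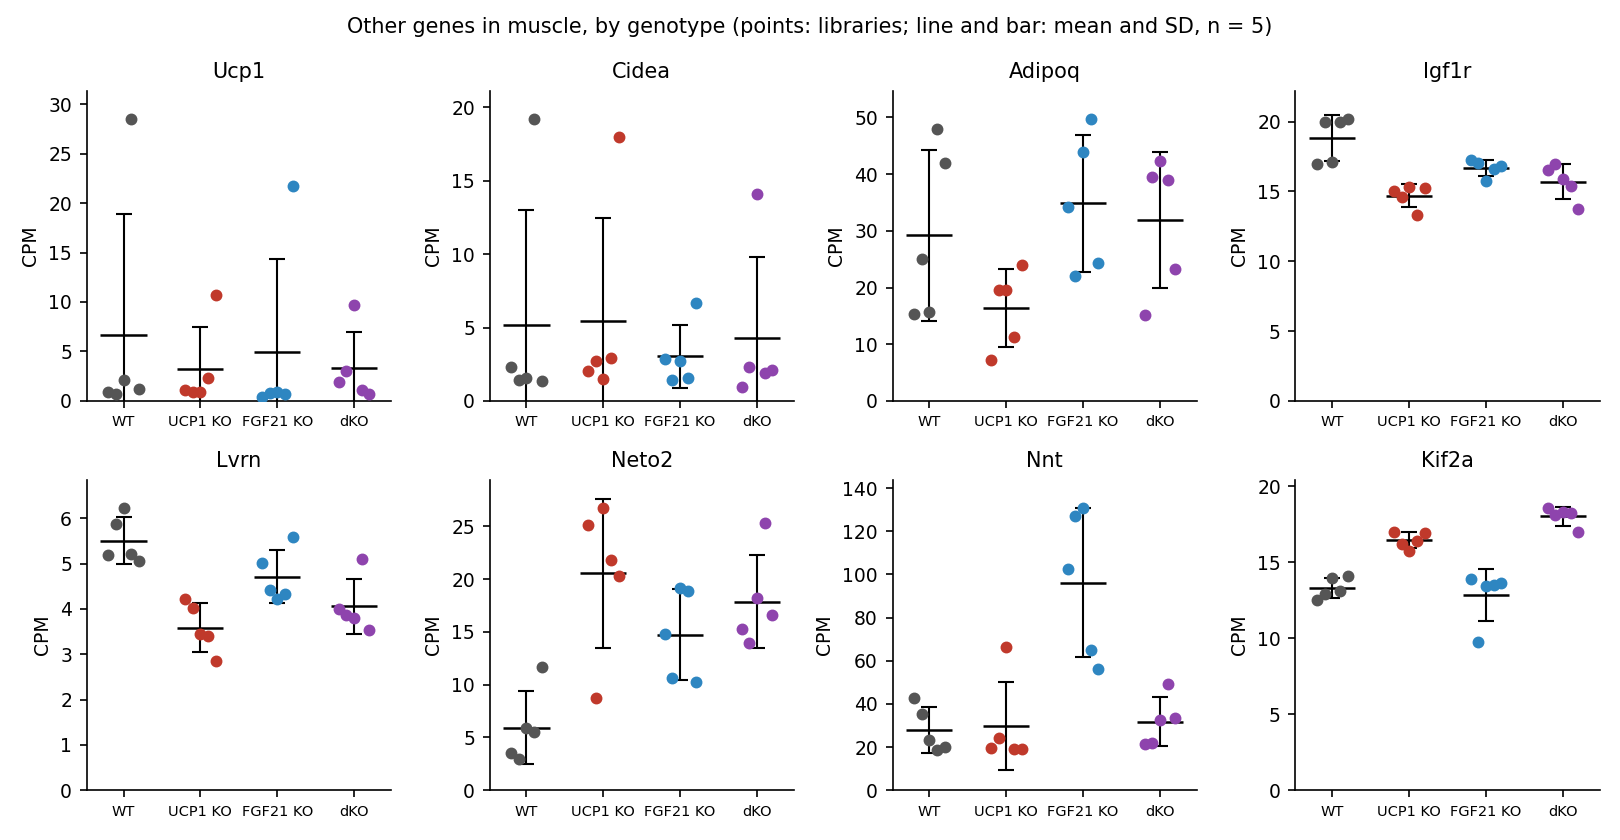
Level in CPM (vertical axes from 0) of 8 other genes in the 5 muscle libraries of each genotype (points) with mean and SD. Ucp1 and Cidea are high in 1 library of each genotype, Igf1r and Lvrn are lower in UCP1 KO than in WT without overlap, and Neto2 is lowest in WT, with WT library 5 above UCP1 KO library 2.

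Gene lists of muscle function, chosen with earlier results of these data known, held no gene called by edgeR, and DESeq2 called Igf1r. Unadjusted p under 0.05 was found over all genes tested for 4.98% in the higher and 4.82% in the lower direction, and the median log2 fold change over all genes tested was 0.00. Apart from the liver list, which was not refitted, the median kept its sign without each single library in the fast fibre, stress response, growth and atrophy, heat shock, adipocyte, immune and nerve lists, and turned in at least 1 such fit in all others. In the contractile apparatus, 0 of 15 fast fibre genes and 0 of 16 slow fibre genes had an unadjusted p under 0.05. The fast fibre list had a median log2 fold change of -0.05, and Myh2, the myosin of type 2A fibres, had the lowest value, -0.57 ± 0.40 (SE). In the slow fibre list 15 of 16 genes were lower, with a median of -0.22 and a median SE of 0.37. Without WT library 1 the median was 0.24, so its sign rests on that library. Myoz2, a Z-disc protein of slow fibres, was at 102, 63.9, 38.2, 24.3 and 22.4 CPM in WT and 32.9, 28.7, 33.3, 30.6 and 34.5 CPM in UCP1 KO, so that the WT libraries alone spread over 4-fold and enclosed all UCP1 KO libraries.

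Calcium cycling, the heat source of the SERCA pumps, gave 0 of 20 genes with an unadjusted p under 0.05 and a median of 0.00. Atp2a1, the fast SERCA pump, was at 23711 to 28514 CPM in WT and 25010 to 28235 CPM in UCP1 KO (log2 fold change -0.01 ± 0.07, SE), and Atp2a2, the slow one, had -0.05 ± 0.34 (log2, SE). Sln, which encodes sarcolipin, a peptide that uncouples the pump, was at 0.388 to 2.25 CPM in WT and 0.506 to 3.56 CPM in UCP1 KO, with an interval of the log2 fold change from -0.26 to 1.94. Of the creatine and adenylate kinase list 0 of 9 genes had an unadjusted p under 0.05.

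Among uncoupling proteins and PPAR targets, Plin4, a lipid droplet coat protein, was the only one of 19 with an unadjusted p under 0.05 (log2 fold change -0.25 ± 0.09, SE). Ucp3, the muscle relative of Ucp1, was at 137, 160, 204, 359 and 387 CPM in WT and 427, 213, 150, 210 and 207 CPM in UCP1 KO (log2 fold change -0.05 ± 0.30, SE), and Ucp2 had -0.06 ± 0.13 (SE). Fatty acid oxidation had 1 of 21 such genes, Echs1, a hydratase of the pathway (log2 fold change -0.24 ± 0.11, SE), and a median of -0.03. Of 26 respiratory chain genes, 0 had an unadjusted p under 0.05, 21 were lower and the median was -0.06. Without WT library 1 the medians of the respiratory chain and fatty acid oxidation lists were 0.00 and 0.04, so their sign rests on that library. The 95% interval of the log2 fold change lay within -1 and 1 for all 26 respiratory chain genes, and for 13814 of the 15114 genes tested. Among 19 mitochondrial regulators Sirt1, a deacetylase, had -0.26 ± 0.08 and Ppargc1b, a coactivator of mitochondrial genes, 0.40 ± 0.18 (log2, SE), the 2 with an unadjusted p under 0.05.

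In glucose use 1 of 24 genes had an unadjusted p under 0.05, Slc2a1, the basal glucose transporter (log2 fold change -0.27 ± 0.13, SE). In insulin and IGF signalling 3 of 20 did. Beside Igf1r, Igfbp3, which binds IGFs in serum, was at 12.1 to 16.8 CPM in WT and 10.0 to 11.2 CPM in UCP1 KO (log2 fold change -0.36 ± 0.16, SE), and Akt1, a kinase below the receptor, was higher by 0.16 ± 0.06 (log2, SE). FGF21 receptors and ERK feedback genes gave 0 of 15, with a median of 0.06, which was -0.04 without UCP1 KO library 5. Fgfr1 was at 82.0 to 115 CPM in WT and 70.4 to 95.1 CPM in UCP1 KO.

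Stress response and myokine genes gave 2 of 22, Fst, which encodes the myostatin antagonist follistatin (-0.48 ± 0.18, log2, SE), and Sesn2, a sestrin (0.31 ± 0.13, log2, SE). Muscle growth and atrophy gave 1 of 19, Gadd45a, a gene of muscle atrophy, at 8.96 to 13.3 CPM in WT and 13.1 to 18.8 CPM in UCP1 KO (log2 fold change 0.43 ± 0.13, SE). The circadian clock gave 0 of 19 and the immediate early genes 1 of 20, Junb, which lies in the window of Ucp1. Of 17 heat shock genes and chaperones 16 were higher, with a median of 0.18, and 1 had an unadjusted p under 0.05, Hsp90ab1 (0.16 ± 0.08, log2, SE).

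**Figure D5:**
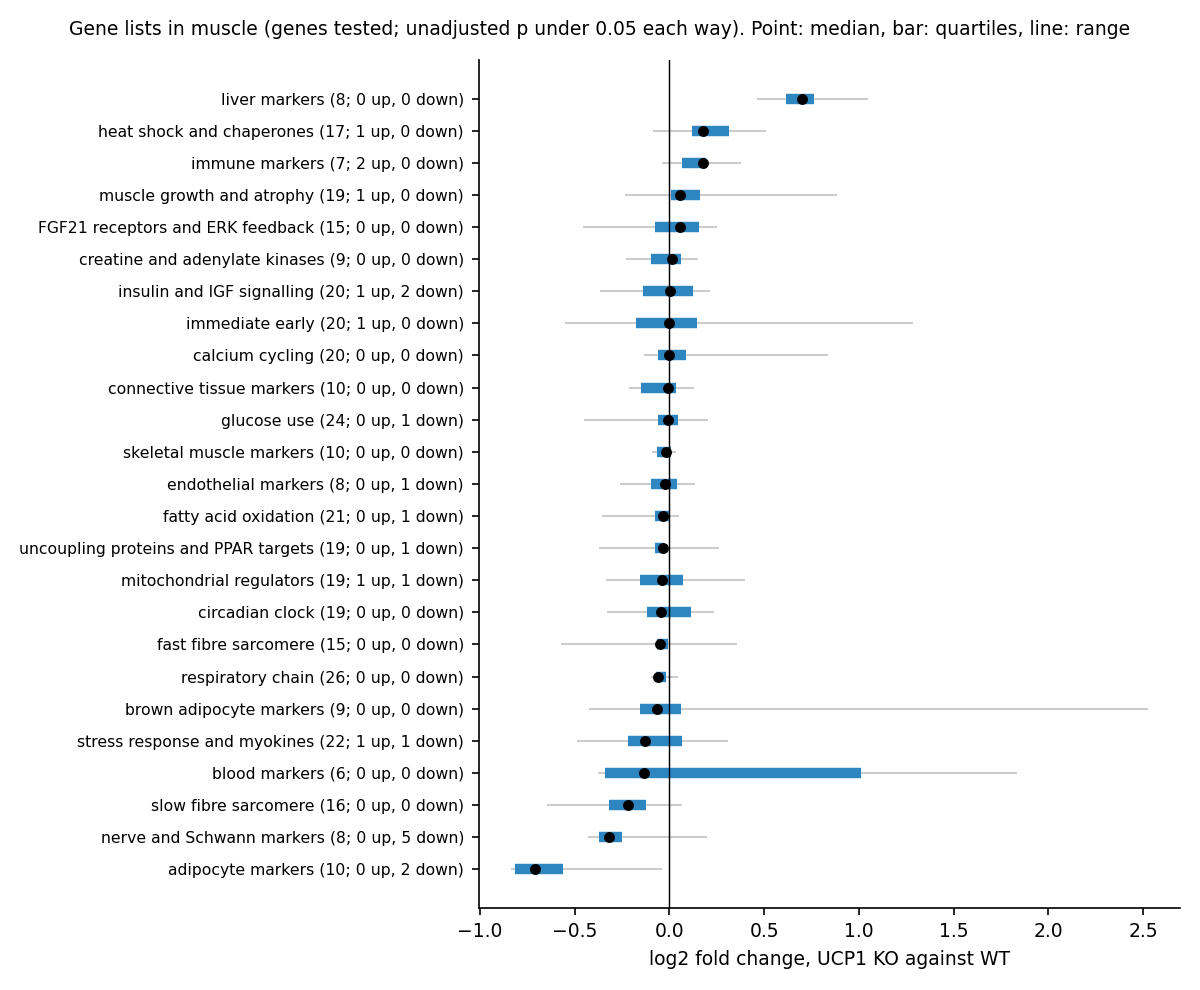
Log2 fold change of UCP1 KO against WT in muscle (horizontal axis) for each gene list (vertical axis, with the number of genes tested and those with an unadjusted p under 0.05 in each direction). Points are medians, thick bars quartiles and thin lines the range, and the adipocyte list is lowest with a median of -0.71 while the liver list is highest with 0.70.

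Some lists of markers of other cell types leaned in 1 direction, with no gene past an adjusted p of 0.05. In a bulk sample, fewer cells of a type and less RNA per cell cannot be told apart. All 10 adipocyte markers were lower in UCP1 KO, with a median log2 fold change of -0.71, which was -0.29 without WT library 4, and 2 had an unadjusted p under 0.05. In dKO against FGF21 KO 4 were higher and 6 lower, with a median of -0.06. Adipoq, the adiponectin gene, was at 15.4, 25.1, 15.7, 48.0 and 41.9 CPM in WT and 7.19, 19.6, 19.5, 11.3 and 24.0 CPM in UCP1 KO (log2 fold change -0.84 ± 0.37, SE, edgeR adjusted p = 0.473). The summed level of the list was 1828 to 4021 CPM in WT and 1031 to 3714 CPM in UCP1 KO, highest in the libraries with most Ucp1. Without these libraries, WT library 4 and UCP1 KO library 5, the same number of genes was called, 4, and they were the same 4 genes.

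Of 8 nerve and Schwann cell markers, 7 were lower and 5 had an unadjusted p under 0.05, with a median of -0.32. Mbp, a myelin protein, was at 16.3, 16.1, 12.6, 16.2 and 12.9 CPM in WT and 9.71, 12.5, 10.5, 9.74 and 12.5 CPM in UCP1 KO, without overlap (log2 fold change -0.43 ± 0.14, SE, edgeR adjusted p = 0.326). Pmp22, a further myelin gene, had -0.29 ± 0.10 (log2, SE). The summed level of the list was 79.6 to 105 CPM in WT and 64.1 to 82.4 CPM in UCP1 KO. In dKO against FGF21 KO the median was -0.10 and 1 of 8 had an unadjusted p under 0.05.

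Like the adipocyte and nerve lists, the remaining markers gave no gene past an adjusted p of 0.05. Immune markers had 2 of 7 tested genes with an unadjusted p under 0.05, the macrophage genes C1qa (0.20 ± 0.09, log2, SE) and Cd68 (0.38 ± 0.18, log2, SE), endothelial markers 1 of 8, Tek, and connective tissue markers 0 of 10. All 8 liver markers were higher, with a median of 0.70 and 0 with an unadjusted p under 0.05, and Alb, the albumin gene, was at 4.68 to 15.2 CPM in WT and 6.09 to 15.4 CPM in UCP1 KO. Brown adipocyte markers gave 0 of 9 and blood markers 0 of 6, and skeletal muscle markers 0 of 10 with a median of -0.02. The part of these cell types in the differences listed for single genes was not tested.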

How the data were processed

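Poly(A) RNA of 5 muscles per genotype was sequenced by the authors as strand-specific paired-end libraries and aligned to the mouse genome mm10 (GRCm38) with STAR. The deposited values are read counts per gene made with HTSeq, without normalization, 1 library per file. Genotype and tissue were taken from the sample labels, which spell the second gene of the dKO as FGF12, while Fgf21 had 0 counts in all 10 FGF21 KO and dKO muscles. Nothing links libraries of the same mouse. In the main fit the p-values weigh a difference between groups against the spread between libraries within genotypes, estimated over all 20 muscle libraries.

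The row naming no gene (at most 3.42e-05% of counts) was left out. A gene was kept if its highest count passed 15, its counts summed to over 75 and 10 or fewer of the 20 muscle libraries were at 0. The 15114 genes kept were fitted with edgeR 4.0.16 (quasi-likelihood test, TMM factors, 1 mean per genotype, R 4.3.3, limma 3.58.1) over all 20 muscle libraries. Adjusted p-values are those of Benjamini and Hochberg over all genes tested. DESeq2 1.42.0 was an alternative. SE are those implied by the fold change and its F statistic. Log2 CPM used a prior count of 2. The interval of each fold change carries the counting error. No 2 libraries had identical counts (190 pairs).

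Positions came from GENCODE M21 and RefSeq on GRCm38 for 23351 (GENCODE symbol), 261 (RefSeq symbol) and 550 (RefSeq synonym) of 32764 genes. Promoters are RefSeq sequences. No protein sequence was used.

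Genes named are Ucp1 and Fgf21, every gene called, the 8 largest rises and 8 largest falls among other genes with p under 0.01, a mean of 1 CPM or more over the 20 libraries and no overlap (uncharacterised names passed over), up to 3 genes per list by p, up to 10 other genes within 10 Mb of Ucp1 by p and up to 10 called by DESeq2 alone. Some of these are given only as counts, and some are not reported here. Further genes named (Alb, Atp2a1, Atp2a2, BC049805, Cacna1a, Cidea, Dnase2a, Kif2a, Mri1, Myh4, Myh7, Nnt, Scoc, Ucp2 and Ucp3) and the liver list were chosen after their values were seen. The comparison and all lists were chosen with earlier results of these data known. The code was tested on simulated data. Alternatives were RLE factors, DESeq2, a fit of all genes without the filter, an adjusted p under 0.05, fits of the 2 genotypes alone and leaving out each library. Leaving out the WT and UCP1 KO libraries with high Ucp1, or FGF21 KO library 5 and dKO library 2 with liver and blood markers, was added after seeing the data. How the counting treated strand is not given in the sources used here, which could move reads between overlapping genes.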

Additional observations from a re-analysis of the deposited data

Results flagged for a closer look

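Of 60 groups of 5 libraries examined (30 genes in WT and in UCP1 KO), 6 held a library far from the other 4, by Dixon's ratio of the gap to the nearest library over the whole range, with a limit of 0.71. For normally distributed values of unselected genes this limit gives about 1 such group in 20. Most genes here were selected on these same groups, so that rate is no measure for the count. For Ucp1 the ratio was 0.951 in WT, where the highest library had 28.5 CPM and the next 2.08 CPM, and 0.857 in UCP1 KO, with 10.7 and 2.30 CPM. For Dand5 in WT it was 0.765, with 11.8 CPM in the highest library and 9.28 CPM in the next, and for Muc4 in UCP1 KO 0.783, with 0.966 and 0.781 CPM. The lowest UCP1 KO library stood apart for Dhps, with a ratio of 0.736 (12.9 CPM against 13.4 CPM), and for Papd5, with 0.859 (25.1 CPM against 27.6 CPM). In Dand5, Muc4, Dhps and Papd5 the libraries of UCP1 KO and WT did not overlap with these libraries included. Muc4 was chosen for no overlap, and Dand5, Dhps and Papd5 by p in the same groups, so this is not a separate check.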

How the results depend on the processing

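Between UCP1 KO and WT, 4 genes were called. The number was 26 with DESeq2, 11 at an adjusted p under 0.05 and 2 when only the 2 genotypes compared were fitted, with fewer libraries for the spread. RLE factors, no low-count filter and leaving out both libraries with most Ucp1 each gave 4. Without single libraries it was 2 to 6, with 2 without UCP1 KO library 1 or UCP1 KO library 5 and 6 without WT library 5, UCP1 KO library 2 or UCP1 KO library 4. Wdr83os and Gm38426 stayed past the threshold in all 10 of these fits, while Wdr83 was lost without WT library 3 or UCP1 KO library 1 or 5 (largest edgeR adjusted p = 0.0136) and Ccdc130 without WT library 1, 2 or 3 or UCP1 KO library 1 or 5 (largest edgeR adjusted p = 0.0153). In the fit of the 2 genotypes alone the adjusted p was 0.0828 for Wdr83 and 0.0888 for Ccdc130. No log2 fold change of the 4 genes changed sign. The genes within 10 Mb of Ucp1 with an unadjusted p under 0.05 numbered 37 to 44 without single libraries. In dKO against FGF21 KO the 9 calls became 17 with DESeq2, 2 with the 2 genotypes alone, 3 without FGF21 KO library 5 and dKO library 2, and 4 to 9 without single libraries, with 4 without dKO library 1 or 2 and 5 without dKO library 3. For the difference between both losses the count stayed at 0 under DESeq2, RLE factors, no filter and an adjusted p under 0.05. Slow fibre genes had a median log2 fold change of -0.40 to 0.24 without single libraries, above 0 only without WT library 1, and adipocyte markers -1.0 to -0.29. The cause of these shifts was not tested. Genes under 1 CPM and lists with a wide spread within WT, such as slow fibre and adipocyte genes, allow only large differences to be seen. No paired analysis was possible because the labels give no replicate numbers and do not link libraries to mice or litters. The numbers used here are only names.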
